A study of Mus musculus with 6 samples.

Results

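The genes described here encode the flagellar axoneme, the microtubule core of the sperm tail, and intraflagellar transport (IFT), the traffic that builds it. They were taken by symbol from the authors' deposited peak tables: Cfap, Dnah, Dnai, Dnal, Tekt, Rsph, Spag, Drc or Ift followed by a digit, symbols starting with Dnaic or Dnali, and Mns1. The rule gave 78 of the 14483 genes that carry a peak in either table, 69 of them in both. No measured value entered the rule. Symbols are an imperfect guide to the axoneme. Of the Spag genes, Spag5 is a spindle protein, Spag9 a scaffold of kinase signalling, Spag4 a SUN-domain protein and Spag1 a cytoplasmic assembly factor of dynein arms, and Spag17os is an antisense gene of Spag17.

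The series holds 6 libraries of N6-methyladenosine (m6A) sequencing from mouse spermatocytes at postnatal day 35, 1 immunoprecipitated (IP) and 1 input library for each of 3 genotypes. These were ClpP cKO, in which the proteolytic subunit of the mitochondrial ClpXP protease was deleted, ClpX cKO, in which its unfoldase was deleted, and WT. Both deletions were made in male germ cells with Stra8-Cre, a recombinase driven by a promoter active in premeiotic germ cells. The labels call the cells primary male germ cells, and the number of mice, the way the cells were purified and whether WT carried Cre are not given in the labels. Each table sets 1 knockout against the same WT libraries and rests on 4 libraries, so no difference has a replicate check. No level per library is given in these tables. Each peak has 1 fold enrichment (IP over input) for all libraries of the table and 1 log2 fold change between genotypes. A positive log2 fold change is read as higher m6A enrichment in the knockout, which rests only on the order of names in each table. Calls are the authors': a peak counts as called below an adjusted p of 0.05 for its difference, which compares these libraries and not the genotypes in general. Depth is unknown, because read counts were not used here. In bulk RNA of this kind, fewer cells of a type and less RNA per cell cannot be told apart.

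An axoneme is a ring of doublet microtubules around a central pair. Axonemal dyneins are motors that slide the doublets. Radial spokes and the nexin-dynein regulatory complex (N-DRC) relay control from the central apparatus to those motors, and tektins and other inner proteins line the doublet wall. IFT complex B carries cargo towards the tip and complex A returns it. In the testis these transcripts are made by spermatocytes and spermatids before and during tail growth. m6A is written by the Mettl3-Mettl14 complex, mostly at the motif DRACH, of which GGAC is a frequent core, and it is dense near stop codons in many mRNAs.

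The promoters of these genes were searched for the X-box, the palindromic site bound by RFX factors, which drive ciliary genes. The pattern GTNNCC, 3 bases of any kind and GNAAC was searched on both strands from 250 bases before to 50 after each RefSeq start (GRCm38.p6). It was found for 12 of 63 flagellar genes with a window (19.0%), against 365 of 9967 genes with a peak in either table (3.66%) and 673 of 27025 genes of the promoter table (2.49%). The other flagellar genes had no window and are not counted. In 3 genes the match lay inside an m6A peak of both tables. It lay at the very start of the RNA or, for Cfap298, upstream of the annotated start. These stretches are shown first, followed by matches in 3 of the further genes with a called peak. All are written on the strand of the gene, and capitals mark the match, which reads as the pattern on that strand or on the opposite one.

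Tekt4, chr17:25471582-25471611, plus strand: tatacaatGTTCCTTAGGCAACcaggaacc
Spag6l, chr16:16829314-16829343, minus strand: tccggttgctgtcgGTTGCCCTGGAGACgc
Cfap298, chr16:90935016-90935045, minus strand: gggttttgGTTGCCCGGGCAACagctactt
Cfap45, chr1:172521103-172521132, plus strand: gttcttggGTTGCTATGGTAACgcgtcagc
Cfap44, chr16:44394764-44394793, plus strand: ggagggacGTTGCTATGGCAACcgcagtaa
Cfap61, chr2:145934768-145934797, plus strand: gccgcgtcGTTTCCTTAGCAACtgtgtgcg

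The Tekt4 window starts at a RefSeq start inside the longer gene span. The other genes with a match were Cfap206, Dnah17, Ift22, Ift57, Spag16 and Spag5, of which Dnah17, Ift22 and Spag5 also had a called peak. Within the stretch of these windows that peaks covered, for at least 30 bases, GGAC on the strand of the gene was found in 6 of 17 flagellar peaks of the ClpP cKO table (35.3%) and 6 of 19 of the ClpX cKO table (31.6%). Over all peaks the shares were 30.8% and 32.1%, so flagellar peaks near starts held the core about as often as other peaks there. The peaks of Mns1 and Tekt4 are the ones of these that were called in both tables, and their cores are shown with GGAC in capitals. In Tekt4 the core lies downstream of the X-box match above and shares no base with it. A match marks letters only, not a methylated base or a bound factor.

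Mns1, chr9:72438538-72438567, plus strand: ttggcggttgccgGGACacagcttaaactt
Tekt4, chr17:25471606-25471635, plus strand: ggaaccttgcttgGGACagagtgaccagta

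Flagellar transcripts carried more peaks per gene than the tables in general, and weaker ones. The ClpP cKO table listed 168 peaks on 74 flagellar genes, 2.27 per gene against 1.81 over all genes, and the ClpX cKO table listed 147 on 73 genes, 2.01 against 1.81. The median fold enrichment in the authors' deposited tables was 3.50 and 3.99 for flagellar peaks, against 8.23 and 8.90 for all peaks. Peaks split over 2 or more blocks, which cross a splice junction, made up 57.7% and 54.4% of flagellar peaks, against 29.7% and 27.5% of all. Mns1, an inner protein of the doublets, had the most blocks, 11, in a peak spanning nearly its whole gene. Peaks within 1000 bases of the annotated gene end were 22.7% and 21.0% of placed flagellar peaks, against 31.7% and 30.5% of all. Those within 300 bases of the start were 12.9% and 15.4%, against 9.74% and 11.5%. Distances include introns, since transcript structure was not used here. The strongest flagellar peak of both tables was the 3' peak of Cfap44, with a fold enrichment of 31.1 in the authors' deposited table for ClpP cKO and 38.3 in that for ClpX cKO, and it was called in neither.

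In ClpP cKO, more flagellar peaks were called higher than lower, while the table as a whole leaned the other way. Of the 168 flagellar peaks 35 were called higher (20.8%, background 6.74%) and 18 lower (10.7%, background 12.8%) in the authors' deposited table. The median log2 fold change was 0.19, against -0.03 over all 24127 peaks. The surplus of higher calls stood in both classes of peak strength. Among peaks with a fold enrichment under 4, 24.5% of 94 flagellar peaks were called higher (background 14.6%) and 8.51% lower (background 12.2%). With a fold enrichment of at least 4, 16.2% of 74 were called higher (background 4.24%) and 13.5% lower (background 13%). Peaks of 1 gene share its RNA, and without the genes that carry 4 or more peaks the calls were 19 higher and 8 lower. The share of all peaks called under that exclusion was not counted, so whether the surplus over the background remains there was not tested.

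In ClpX cKO, flagellar peaks and the table as a whole both had more higher than lower calls. Of 147 flagellar peaks 35 were called higher (23.8%, background 15.1%) and 3 lower (2.04%, background 5%) in the authors' deposited table. The median log2 fold change was 0.27, against 0.24 over all 23681 peaks. Beside peaks of like strength the shares came close to the background. Under a fold enrichment of 4, 33.8% of 74 flagellar peaks were called higher (background 32.1%) and 0 lower (background 1.29%). At 4 or more, 13.7% of 73 were called higher (background 10.3%) and 4.11% lower (background 6.04%). With values centred on the table median and calls remade, 27 flagellar peaks were higher and 9 lower. Over all peaks 11.1% were then higher and 13.6% lower, a background not matched for peak strength. Before centring, the median of all peaks under a fold enrichment of 4 was 0.78, above the 0.24 subtracted. Whether flagellar peaks differ from other weak peaks after centring was not tested. In all, 36 of 74 flagellar genes had a called peak in the ClpP cKO table and 29 of 73 in the ClpX cKO table. Of the 78 genes, 50 had a called peak somewhere and 28 had none. The matching shares of all genes with a call in either direction were not counted, so these gene counts only describe the list. Flagellar genes with a higher and with a lower call numbered 25 and 14 in ClpP cKO, against 1433 and 2649 of all 13334 genes. In ClpX cKO they numbered 26 and 3, against 2901 and 1102 of all 13085 genes. Flagellar genes carried more peaks each, which raises counts per gene.

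**Figure D1:**
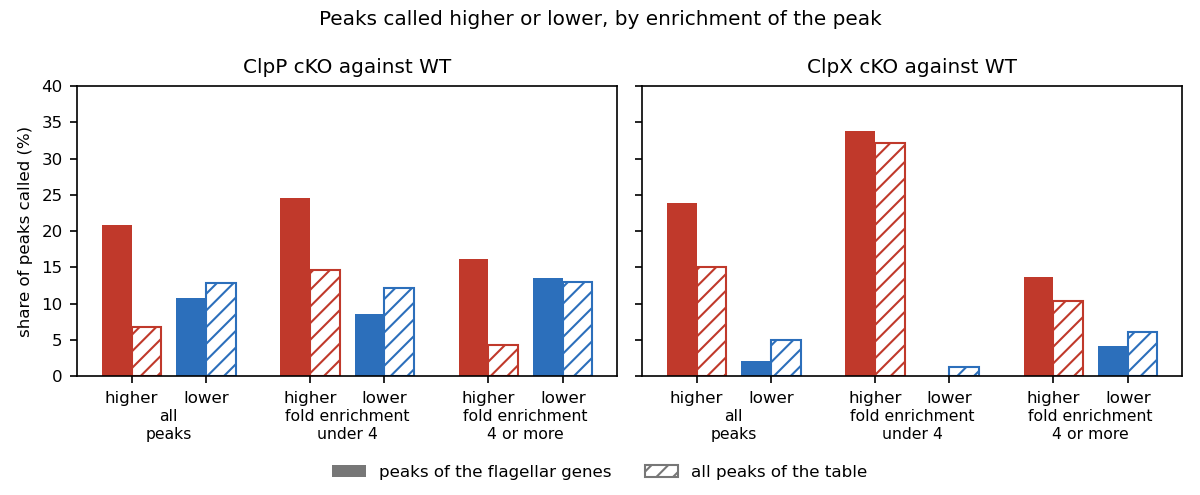
Share of peaks called higher (red) or lower (blue) in percent, for flagellar genes (filled bars) and all peaks of the table (hatched bars), over all peaks and by fold enrichment. In ClpP cKO the filled red bar is taller than the hatched one in each class (20.8% against 6.74% over all peaks), and in ClpX cKO the 2 red bars nearly meet under a fold enrichment of 4 (33.8% against 32.1%).

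**Figure D2:**
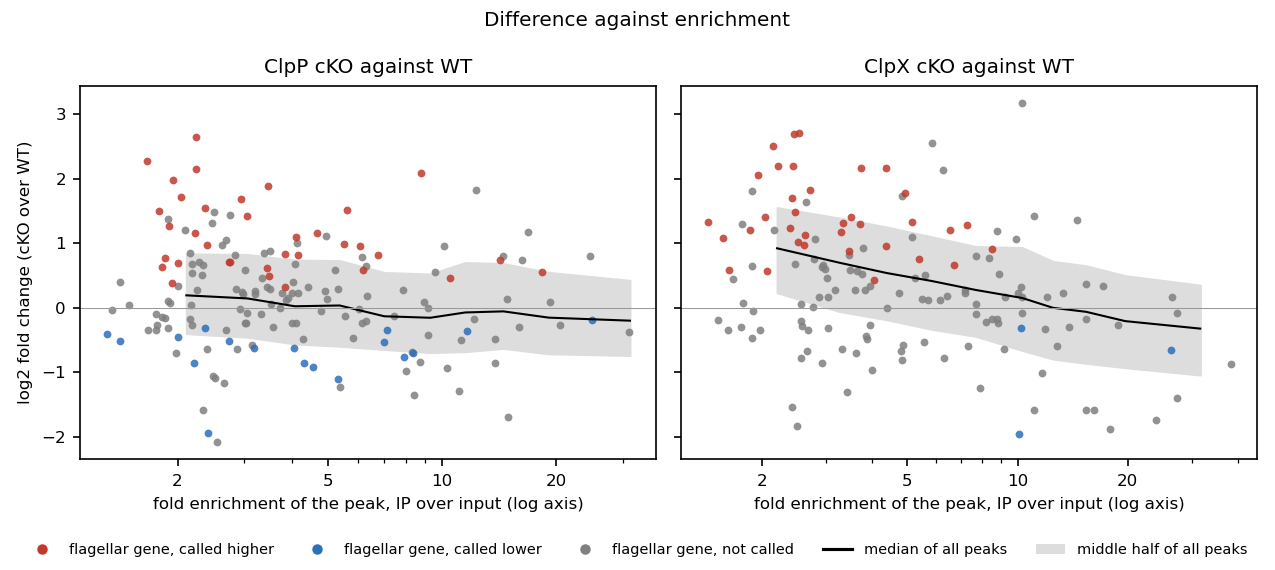
Log2 fold change of each flagellar peak (cKO over WT) against its fold enrichment on a log axis, coloured by call. The black line is the median and the grey band the interquartile range of all peaks, in equal bins of the table by enrichment. In ClpX cKO the line stands at 0.92 in the weakest bin and at -0.32 in the strongest, and most red points lie at the weak end.

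Axonemal dynein heavy chains, the ATPase motors, held the most peaks and the largest number of calls in ClpP cKO. Of 43 peaks on 11 genes, 11 were called higher and 4 lower (median log2 fold change 0.58). Their share of higher calls was 25.6%, against 6.74% of all peaks and 14.6% of those under a fold enrichment of 4. Some smaller groups had larger shares, such as the central apparatus at 36.4%. The ClpX cKO table had 7 higher and 2 lower of 35 peaks and a median of 0.02. That share of higher calls lay between the 15.1% of all peaks and the 32.1% of peaks under a fold enrichment of 4. Dnah8, an outer-arm heavy chain of sperm, stood out by having each of its 4 peaks called higher in the authors' deposited table for ClpP cKO, with log2 fold changes of 0.70, 0.32, 0.64 and 0.39 from its 5' to its 3' end. The 4 overlapping peaks had 1.20, 0.27, 0.44 and 1.41 in the authors' deposited table for ClpX cKO, where the first and last were called. All 4 were weakly enriched, at 1.82 to 3.85 and 1.67 to 3.60, and the last (chr17:30875145-30875505) shares bases with a peak of Gm9937. Dnah17, which pairs with Dnah8 in the outer arm, had opposite calls at 1 site near its 3' end (chr11:118023042-118023491), at -0.62 in the authors' deposited table for ClpP cKO and 1.30 in that for ClpX cKO. Its peak further upstream had 0.41, not called, and 1.33, called higher, in the authors' deposited tables for ClpP cKO and ClpX cKO.

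The remaining heavy chains, mostly of inner arms, showed isolated calls. Dnah12 had the highest log2 fold change of the group for ClpP cKO, 2.08 at chr14:26723893-26734493, in the authors' deposited table, and also the lowest, -2.08, which was not called. Dnah14, with 6 peaks, had 2 adjoining ones called higher at 0.97 and 0.71 in the authors' deposited table for ClpP cKO, and none called for ClpX cKO. Dnah6 was called lower at -0.85 in the authors' deposited table for ClpP cKO. In the authors' deposited table for ClpX cKO, Dnah2, a heavy chain of inner dynein f, had 2.19 and 2.69, the highest value of the group. Dnah1 had 2.19 in the same authors' deposited table, at a peak that shares bases with Gm35823. All of these Dnah2 and Dnah1 peaks were called higher, at fold enrichments of 2.21 to 2.45. The lowest value for ClpX cKO was -1.58 at Dnah14, not called, in the authors' deposited table.

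Dnah7a, Dnah7b and Dnah7c are near-identical copies on chromosome 1, and reads of one may have been counted for another. A peak of several blocks on Dnah7a was called lower in both, at -0.35 in the authors' deposited table for ClpP cKO and -0.31 in that for ClpX cKO. A like peak of Dnah7b was called lower at -0.70 in the authors' deposited table for ClpP cKO, and 1 of Dnah7c at -0.66 in that for ClpX cKO. These are among the strongly enriched flagellar peaks, at 8.35 to 26.3. Weaker peaks of the 3 copies were called higher, according to the authors' deposited table for ClpP cKO, at 1.98 for Dnah7a, 0.83 and 1.42 for Dnah7b and 1.50 for Dnah7c. Dnah3 had 4 peaks in each table and no call.

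Intermediate and light chains of the dynein arms had 0 higher and 1 lower of 8 peaks in ClpP cKO, and 3 higher and 0 lower of 9 in ClpX cKO. All peaks gave 6.74% higher and 12.8% lower in ClpP cKO, and 15.1% and 5% in ClpX cKO. Peaks under a fold enrichment of 4 gave 32.1% higher in ClpX cKO. No role group was tested against these backgrounds. The lower one was the 3' peak of Dnaic2, an outer-arm intermediate chain, at -0.53 in the authors' deposited table for ClpP cKO, where its ClpX cKO value of 0.32 was not called. Dnal4, a light chain, was called higher at 1.82 for ClpX cKO (chr15:79761632-79762170, adjusted p of 6.3e-43, the smallest of all flagellar peaks) in the authors' deposited table. Its shorter overlapping peak for ClpP cKO had -0.34 and was not called in the authors' deposited table. Dnal1, an outer-arm light chain, at 0.95 and Dnali1, a light intermediate chain of inner arms, at 0.75 were the other 2 in the authors' deposited table for ClpX cKO, and the Dnal1 peak shares bases with one of Pnma1. Uncalled extremes lay at 1.83 for Dnal1 in ClpP cKO and -1.87 for Dnal1 in ClpX cKO, again from the authors' deposited tables.

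Tektins, filament proteins of the doublet lumen, had 1 higher and 2 lower of 6 peaks in ClpP cKO and 3 higher and 0 lower of 7 in ClpX cKO. The backgrounds were 6.74% higher and 12.8% lower in ClpP cKO, and 15.1% and 5% in ClpX cKO. Tekt1 had the highest value, 2.50, at a 3' peak (chr11:72344722-72344958) listed in the authors' deposited table for ClpX cKO alone. Tekt2 was called higher, at 1.23, according to the authors' deposited table for ClpX cKO, against -0.09, not called, for ClpP cKO. Tekt3 held calls in both directions within 1 RNA in the authors' deposited table for ClpP cKO, -0.77 at an internal peak and 0.71 at the 3' end, and its 3 values for ClpX cKO, 0.17, -0.20 and -0.47, were not called. Tekt4, with the X-box match and the GGAC core shown above inside its peak, had opposite calls at that peak, -0.35 in the authors' deposited table for ClpP cKO and 0.66 in that for ClpX cKO.

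Radial spoke genes had 0 higher and 3 lower of 11 peaks in ClpP cKO, and 5 higher and 0 lower of 10 in ClpX cKO. All 3 lower ones were on Rsph6a, a spoke-head protein of sperm. Its 4 peaks had -0.42, -0.92, -0.51 and -0.63 in the authors' deposited table for ClpP cKO, of which the last 3 were called. The overlapping peaks had 0.77, 0.19, 0.88 and 0.42 in the authors' deposited table for ClpX cKO, of which the last 2 were called. So every Rsph6a peak had a value below 0 for ClpP cKO and above 0 for ClpX cKO. Rsph1, also of the spoke head, was called higher at 1.08 and 1.33 in the authors' deposited table for ClpX cKO, where the same 2 sites had -0.04 and 0.14 for ClpP cKO, not called. Cfap61, at the spoke base, was called higher, at 2.05, according to the authors' deposited table for ClpX cKO and has no peak in the other. The lowest values, -1.69 and -1.74, belonged to Rsph14 in the authors' deposited tables for ClpP cKO and ClpX cKO and were not called. The highest ClpP cKO value, 0.55 at Rsph10b, was not called in the authors' deposited table either.

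In the N-DRC, Drc1, which is needed to assemble that complex, had 2 of 3 peaks called higher in the authors' deposited table for ClpP cKO, at 0.61 and 1.16. The same 2 sites had 0.16 and -0.34 in the authors' deposited table for ClpX cKO, where none of the 6 N-DRC peaks was called and the highest was 1.19, also at Drc1. The first Drc1 peak had -0.47, the lowest N-DRC value in the authors' deposited table for ClpP cKO. Cfap43 and Cfap44, which tether the heads of inner dynein f, had 3 of 6 peaks called higher in ClpP cKO and 0 of 3 in ClpX cKO. For both groups the background was 6.74% higher in ClpP cKO and 15.1% in ClpX cKO, and groups this small were not tested against it. Cfap43 had 2.15 and 2.64 at 2 neighbouring weak peaks in the authors' deposited table for ClpP cKO, and no peak in the other. Cfap44 was called higher at 0.99 over 6 blocks in the authors' deposited table for ClpP cKO, while its strong 3' peak had -0.38 and, for ClpX cKO, -0.87, not called. The highest ClpX cKO value, 1.36 at Cfap44, was not called in the authors' deposited table.

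Central apparatus genes had 8 higher and 2 lower of 22 peaks in ClpP cKO, and 2 higher and 1 lower of 19 in ClpX cKO. In ClpP cKO these were 36.4% higher (background 6.74%) and 9.09% lower (background 12.8%). In ClpX cKO they were 10.5% higher (background 15.1%) and 5.26% lower (background 5%). Spag17, a large protein of a central-pair projection, gave 4 of the 8 higher calls in ClpP cKO. Its 5 peaks had 0.96, 1.54, 0.47, 0.21 and 1.51 in the authors' deposited table for ClpP cKO, all called but the fourth. In the authors' deposited table for ClpX cKO its 6 peaks had 2.14, -0.86, -0.57, -1.24, 0.59 and -0.20, and none was called. The fourth and last of the ClpP cKO peaks share bases with peaks of Spag17os and Wdr3. Spag17os itself had 0.25 and 0.66 in the authors' deposited tables for ClpP cKO and ClpX cKO, not called, and without knowledge of strand in the counting it cannot be told apart from Spag17 there.

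**Figure D3:**
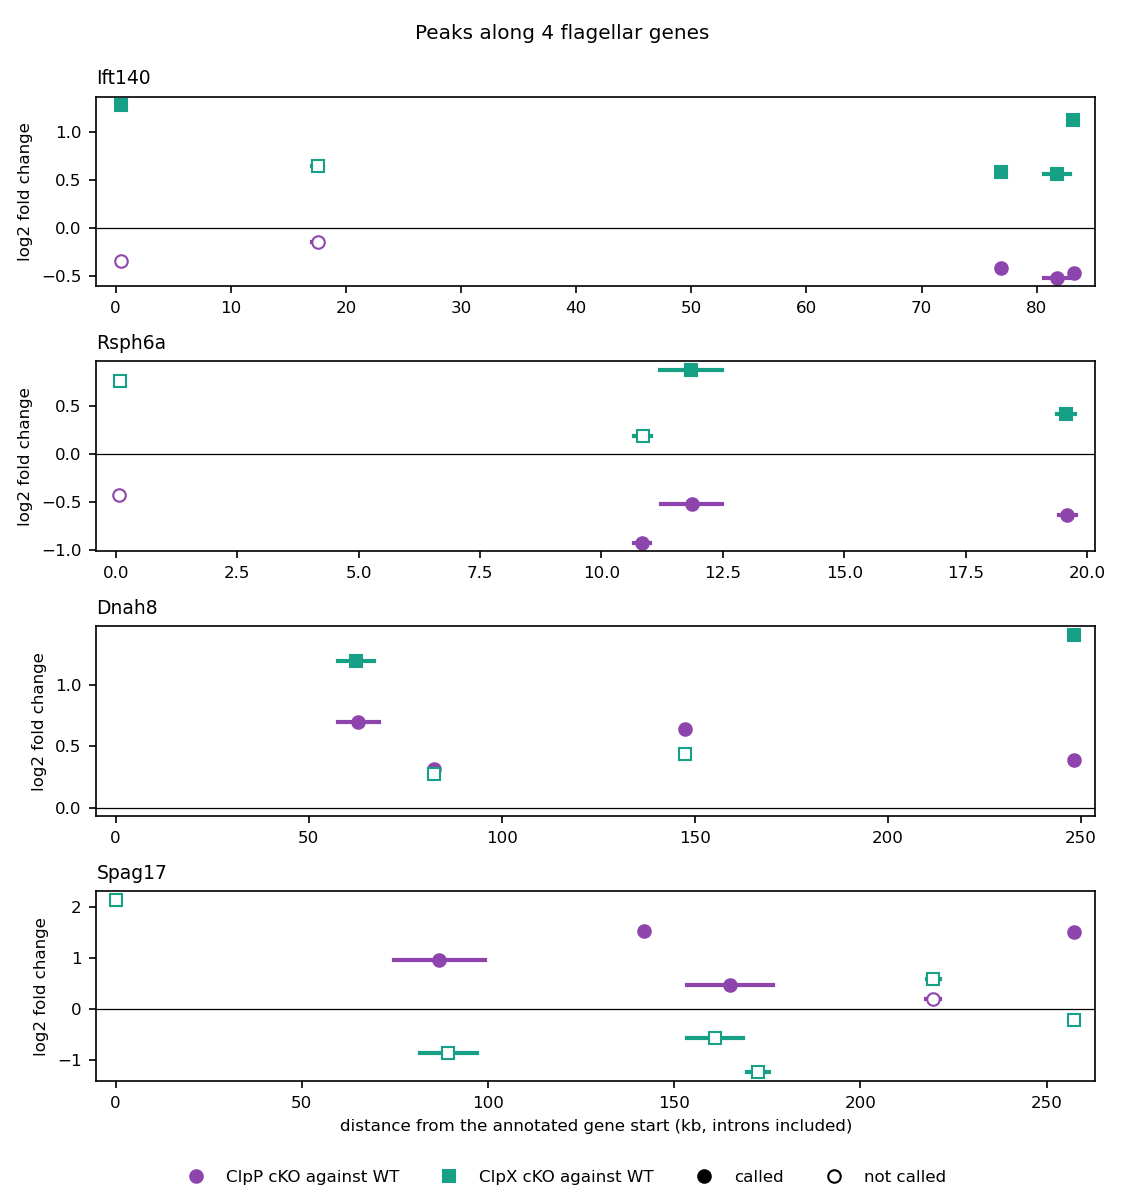
Log2 fold change (cKO over WT) of each peak of Ift140, Rsph6a, Dnah8 and Spag17 against its distance in kb from the annotated gene start, introns included. Circles are ClpP cKO, squares ClpX cKO, filled symbols are called and bars span the peak. All peaks of Ift140 and Rsph6a lie below 0 for ClpP cKO and above 0 for ClpX cKO, all 4 of Dnah8 lie above 0 in both, and 4 circles of Spag17 are filled but no square.

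Of the other central apparatus genes, those with a call had it at 1 site each, and Cfap54 and Spag16 had none. Cfap74 was called higher at its 3' end (chr4:155466613-155466823) in both, at 1.88 in the authors' deposited table for ClpP cKO and 2.71, the highest value of the group, in that for ClpX cKO. Cfap69, Cfap70 and Cfap99 were called higher, according to the authors' deposited table for ClpP cKO, at 1.69, 1.26 and 1.10. Cfap65 had opposite calls at its middle peak (chr1:74924805-74925314), -1.10 in the authors' deposited table for ClpP cKO and 0.91 in that for ClpX cKO, while its peaks at either end of the gene were not called. Spag6l was called lower at -0.31 in the authors' deposited table for ClpP cKO. Its peak over the start, where the X-box match lies, had -0.58 and 1.09 in the authors' deposited tables for ClpP cKO and ClpX cKO and was not called. Cfap46 had the lowest value of any flagellar peak of ClpX cKO, -1.95, called lower at chr7:139638379-139639552 in the authors' deposited table, against -0.17, not called, for ClpP cKO.

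Inner proteins of the doublets had 3 higher and 0 lower of 10 peaks in each comparison. All peaks gave 6.74% higher and 12.8% lower in ClpP cKO, and 15.1% and 5% in ClpX cKO. Mns1 was called higher in both, at 0.81 in the authors' deposited table for ClpP cKO and 1.20 in that for ClpX cKO, with fold enrichments of 6.75 and 6.55. Cfap45 at 0.58 and Cfap53 at 0.74 were called over 9 and 7 blocks in the authors' deposited table for ClpP cKO, and their overlapping peaks had 0.22 and 0.23 for ClpX cKO, not called. The Cfap45 peak shares bases with 4933439K11Rik. Cfap126 at 2.16 and Cfap161 at 1.31 were called higher at their 3' ends in the authors' deposited table for ClpX cKO, where the same sites had 0.05 and 0.21 for ClpP cKO, not called. Cfap45 also had the lowest values, -0.85 and -1.58 at its start in the authors' deposited tables for ClpP cKO and ClpX cKO, not called.

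IFT-A had 1 higher and 3 lower of 8 peaks in ClpP cKO and 4 higher and 0 lower of 7 in ClpX cKO. The background was 6.74% higher and 12.8% lower in ClpP cKO. In ClpX cKO it was 15.1% higher and 5% lower, or 32.1% higher under a fold enrichment of 4. All but 1 of the IFT-A calls were on Ift140, the core scaffold of IFT-A, so the group counts mostly describe 1 gene. From 5' to 3' its 5 peaks had -0.34, -0.14, -0.41, -0.51 and -0.46 in the authors' deposited table for ClpP cKO, of which the last 3 were called lower. The overlapping peaks had 1.28, 0.64, 0.58, 0.56 and 1.13 in the authors' deposited table for ClpX cKO, all called higher but the second. The 3 sites called in both lie at the 3' end of the gene (chr17:25092845-25099495 for ClpP cKO), with fold enrichments of 1.30, 1.41 and 2.01 for ClpP cKO and 1.63, 2.07 and 2.63 for ClpX cKO. Ift43 was called higher at its 3' end, at 1.72, in the authors' deposited table for ClpP cKO, and its start peak had -1.35 and, for ClpX cKO, -1.01, not called.

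IFT-B genes had 2 higher and 1 lower of 20 peaks in ClpP cKO and 2 higher and 0 lower of 12 in ClpX cKO. The background was 6.74% higher and 12.8% lower for ClpP cKO, and 15.1% higher and 5% lower for ClpX cKO. IFT-B peaks were too few to set the group apart from it. Ift22, a Rab-like GTPase, was called higher at 2.27 near its 3' end in the authors' deposited table for ClpP cKO, and at 1.70 at a different, upstream peak in that for ClpX cKO. Ift74, a core subunit, was called higher at 1.15 and Ift172 lower at -0.86, next to its start, in the authors' deposited table for ClpP cKO. Ift88, known for its role in sperm tail and cilium assembly, was called higher, at 1.49, according to the authors' deposited table for ClpX cKO. Ift20, Ift46, Ift52, Ift57, Ift80 and Ift81 had peaks and no call. The uncalled extremes were -1.29 at Ift80 for ClpP cKO, and 1.73 at Ift22 and -1.83 at Ift57 for ClpX cKO, in the authors' deposited tables.

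Other Cfap genes had 2 higher and 1 lower of 15 peaks in ClpP cKO and 2 higher and 0 lower of 17 in ClpX cKO. Their shares of higher calls were 13.3% (background 6.74%) and 11.8% (background 15.1%). Backgrounds of lower calls were 12.8% and 5%. Cfap57 was called higher in both, at 0.50 in the authors' deposited table for ClpP cKO and 0.96 in that for ClpX cKO. Cfap36 at 0.55 and Cfap97 at -0.19 were called, according to the authors' deposited table for ClpP cKO, both at strongly enriched peaks (18.3 and 24.8). Cfap298, an assembly factor of dynein arms, was called higher, at 1.02, according to the authors' deposited table for ClpX cKO, against -0.31, not called, for ClpP cKO. Its second peak, upstream of the annotated start at the X-box match, shares bases with 4930534H18Rik and was not called, with -0.94 and 0.06 in the authors' deposited tables for ClpP cKO and ClpX cKO. The uncalled extremes were 1.17 at Cfap410 for ClpP cKO, and 1.42 at Cfap97d1 and -0.96 at Cfap157 for ClpX cKO, in the authors' deposited tables.

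The other Spag genes had 2 higher and 1 lower of 13 peaks in ClpP cKO and 4 higher and 0 lower of 11 in ClpX cKO. Their shares of higher calls were 15.4% (background 6.74%) and 36.4% (background 15.1%). Backgrounds of lower calls were 12.8% and 5%. Spag9 was called higher at the same 3' peak in both, at 0.82 in the authors' deposited table for ClpP cKO and 1.41 in that for ClpX cKO, and at its start at 1.78 for ClpX cKO. Spag5 was called higher, at 0.77, according to the authors' deposited table for ClpP cKO and, at another site, at 1.18 in that for ClpX cKO. Spag1 was called lower at -1.94 in the authors' deposited table for ClpP cKO, at a peak that shares bases with Gm41293, and higher at 2.16 near its 3' end in that for ClpX cKO. The highest value of all flagellar peaks, 3.17 at Spag4 in the authors' deposited table for ClpX cKO, was not called, and the lowest of these Spag genes for ClpX cKO was -1.39 at Spag9, not called.

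**Figure D4:**
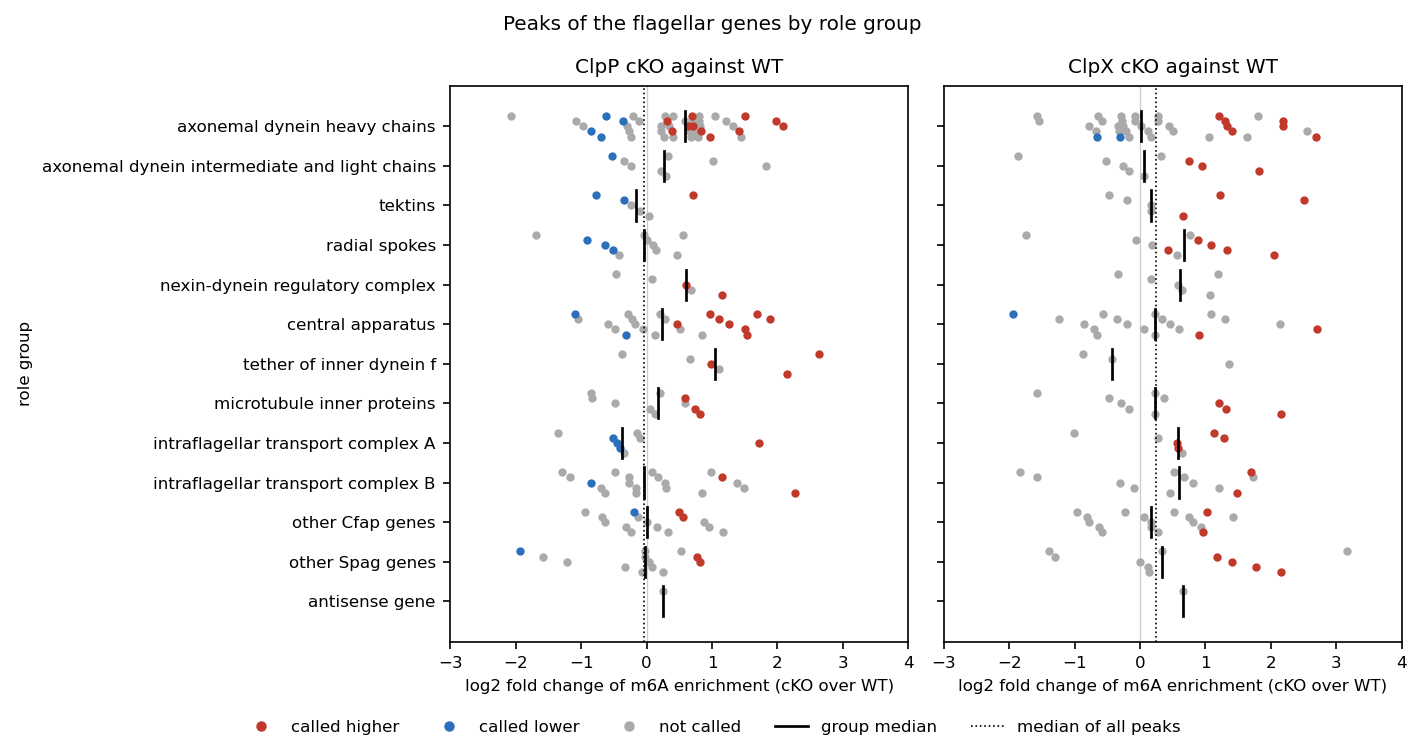
Log2 fold change (cKO over WT) of each flagellar peak by role group, with called peaks in colour, a black bar at the group median and a dotted line at the median of all peaks (-0.03 for ClpP cKO, 0.24 for ClpX cKO). The tether of inner dynein f (1.05), the N-DRC (0.61) and the heavy chains (0.58) have the highest medians in ClpP cKO, and the ClpX cKO panel holds 3 blue points.

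The 2 comparisons share their WT libraries, so their values are given side by side without a measure of likeness. At an overlap of 1 base on the same strand, 131 flagellar peaks could be paired between the tables, and 15 pairs were called in both. Cfap57, Cfap74, Mns1, Spag9 and 2 peaks of Dnah8 were higher in both and Dnah7a lower in both. The other 8, on Cfap65, Dnah17, Tekt4, Rsph6a and Ift140, were lower in ClpP cKO and higher in ClpX cKO. These were 6.11% of the flagellar pairs, against 760 of 18890 pairs of all genes (4.02%), of which 1694 were called in both, so the opposite calls lay near the background.

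**Figure D5:**
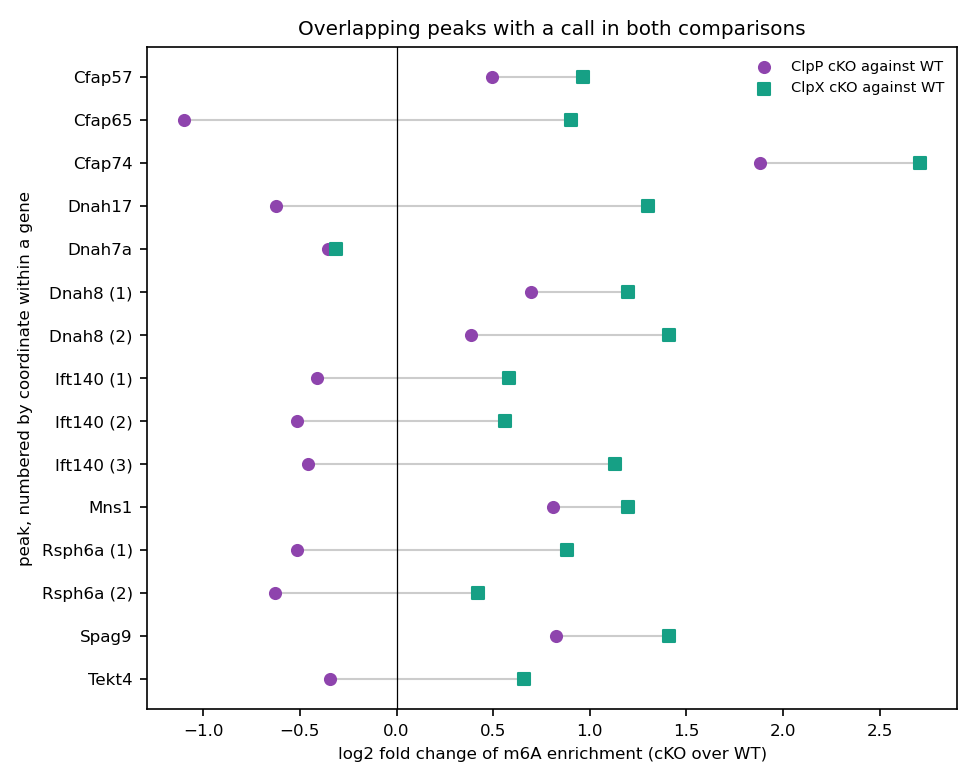
Log2 fold change (cKO over WT) of the 15 overlapping peaks with a call in both comparisons, circles for ClpP cKO and squares for ClpX cKO, with a grey line joining the 2 values of a site. For 8 sites the circle lies left of 0 and the square right of it, with Cfap65 the widest apart (-1.10 and 0.91).

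By place along the gene, flagellar peaks near starts had the smallest share of calls in either comparison. Of 21 flagellar peaks near a start 1 was called higher and 1 lower in ClpP cKO, and of 22 in ClpX cKO 4 were called higher and 0 lower. The shares called higher there, 4.76% and 18.2%, lay near those of all peaks near starts, 5.39% and 17.1%. Lower calls made up 17.6% and 5.21% of all peaks near starts, so the place pattern rests on a handful of flagellar peaks. Near gene ends the counts were 11 and 5 of 37 in ClpP cKO, and 12 and 0 of 30 in ClpX cKO, and elsewhere 24 and 12 of 106, and 20 and 3 of 92. All peaks near ends gave 7.63% higher and 15.2% lower in ClpP cKO, and 19.6% and 5.17% in ClpX cKO. Elsewhere all peaks gave 6.94% and 11.5% in ClpP cKO, and 13.1% and 5.2% in ClpX cKO. These backgrounds are not matched for peak strength. The Mns1 peak reaches both ends and is counted at each. End peaks were also the weaker ones, with a median fold enrichment of 2.98 and 3.41, against 5.80 and 5.98 at starts, in the authors' deposited tables. In calls of both directions together, and in enrichment, the tables as a whole did not share these patterns. Over all peaks, 22.9% near starts, 22.8% near ends and 18.4% elsewhere were called in either direction in ClpP cKO, and 22.3%, 24.7% and 18.3% in ClpX cKO. Their median fold enrichment was higher at ends, 7.83 and 8.54, than at starts, 6.13 and 6.09, in the authors' deposited tables.

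Genes of the same structures that the symbol rule does not take were set beside these. Of 99 listed genes (assembly factors, docking and ruler proteins, IFT motors and subunits, Hydin and other central-pair genes, tail genes and their transcription factors) 81 carried a peak. In ClpP cKO 27 of 154 peaks were called higher (17.5%) and 38 lower (24.7%), and the median log2 fold change was -0.02. In ClpX cKO 37 of 140 were called higher (26.4%) and 5 lower (3.57%), and the median was 0.28. Both ClpP cKO shares exceeded the background of 6.74% higher and 12.8% lower. So a share of higher calls above that background was not particular to the genes named by the rule. These peaks were weak too (median fold enrichment 3.75 in ClpP cKO), and all peaks under a fold enrichment of 4 gave 14.6% higher and 12.2% lower. For ClpX cKO the background was 15.1% higher and 5% lower, or 32.1% and 1.29% under a fold enrichment of 4. The difference between both groups of genes was not tested. The lower calls of smallest adjusted p in the authors' deposited table for ClpP cKO were Qrich2, a tail gene, at -0.87, Dnaaf1, an assembly factor of dynein arms, at -0.43, the N-DRC genes Ccdc96 at -0.59 and Tcte1 at -0.69, the IFT-B gene Ttc30a2 at -0.57 and Pih1d1 at -1.49. The higher calls were Lrrc6, another assembly factor, at 1.90, Wdr78, an inner dynein intermediate chain, at 2.75, the ruler gene Ccdc39 at 1.92, Pih1d2 at 1.02, the IFT-A gene Wdr35 at 1.47 and Dync2li1, of the IFT dynein, at 2.39 in the authors' deposited table for ClpP cKO. Wdr35 was also called lower there, at -1.16, at another of its peaks. For ClpX cKO the higher calls were Zmynd10 at 1.92, Tcp11 at 1.30, Ccdc65 at 1.27, Tcte1 at 1.32, Qrich2 at 0.94 and the kinesin Kif17 at 1.71 in the authors' deposited table. The 5 lower ones in the same authors' deposited table were Qrich2, at another of its peaks, at -0.45, Pih1d3 at -2.22, Ttc30a1 at -0.70, Arl13b at -1.28 and Enkur at -1.65. Ttc30a1 and Ttc30a2 are near-identical neighbours, so their assignment is uncertain. Of the factors that drive ciliary genes, Foxj1 was called lower at both of its peaks, -1.21 and -0.33, in the authors' deposited table for ClpP cKO, and the same sites had -0.47, not called, and 0.66, called higher, in that for ClpX cKO. Rfx2 had -0.69 and 1.12 in the authors' deposited tables for ClpP cKO and ClpX cKO, both called. Rfx4 had -1.48, called lower, and -0.48, not called, in the authors' deposited table for ClpP cKO, and at the same sites -1.29, not called, and 1.33, called higher, in that for ClpX cKO. Rfx3 had no call. These factors were picked after their values were seen.

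Markers of the labelled cells and of other cells were present. Of 10 spermatocyte genes 9 carried a peak in the ClpP cKO table and 7 in the ClpX cKO table, and Ccna1 had none. Of 10 spermatid genes 9 and 10 did, so spermatid RNA was in the samples. Sertoli and Leydig cell genes had 2 higher and 2 lower of 16 peaks in ClpP cKO (median log2 fold change 0.14) and 6 higher and 1 lower of 16 in ClpX cKO (median 1.14), with no peak for Amh and Cyp11a1. Spermatogonial genes had 1 higher and 1 lower of 14 peaks in ClpP cKO (median 0.40) and 5 higher and 0 lower of 12 in ClpX cKO (median 1.14). Spermatocyte genes had 4 higher and 4 lower of 18 peaks in ClpP cKO and 4 higher and 1 lower of 10 in ClpX cKO. Spermatid genes had 3 higher and 3 lower of 15 peaks in ClpP cKO and 9 higher and 0 lower of 16 in ClpX cKO. The ClpX cKO shares of higher calls ran from 37.5% (Sertoli and Leydig) to 56.2% (spermatid). The background there was 15.1%, or 32.1% under a fold enrichment of 4. For ClpP cKO the higher share and the lower share each ran from 7.14% (spermatogonial) to 22.2% (spermatocyte). All peaks of that table gave 6.74% higher and 12.8% lower. Whether these groups differ from peaks of like strength was not tested. The part of these cells in the flagellar values was not tested. Of 5 genes of multiciliated epithelium, which builds the same axoneme, Foxj1, Deup1 and Ccno had peaks in both tables and Mcidas and Myb had none. Deup1 had 1 peak at 1.31, called higher, in the authors' deposited table for ClpP cKO, and apart from Foxj1 no other of these peaks was called. Neither targeted gene was called: Clpx had 0.38 and 0.55 in the authors' deposited tables for ClpP cKO and ClpX cKO, and Clpp had 1.70 in that for ClpX cKO alone.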

How the data were processed

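The 6 libraries of m6A sequencing (IP and input of ClpP cKO, ClpX cKO and WT) entered through 2 deposited tables, each comparing 1 knockout with WT. Per the file headers, the authors gave each peak a p-value, scores that are the log10 of p and of adjusted p, a fold enrichment (a linear ratio of IP over input) and a log2 fold change between genotypes. Coordinates are on GRCm38 (mm10), a build named in the submitters' processing notes. Aligner, peak caller, normalisation and strand handling: not given in the sources used here. Values were used as deposited, with starts raised by 1 base. A count of calls used the authors' adjusted p under 0.05 and the sign of the log2 fold change. With 1 library per group, no test was run here and depth is unknown. The remaking of calls after the median is subtracted was tried on simulated data, and the counts of deposited calls were not. Overlaps were found block by block with bedtools 2.31.1, and the rest was computed with pandas 2.3.3. RefSeq spans of GRCm38.p6 matched 76 of 78 symbols, and 63 genes had a promoter window. Each gene with a called peak is named, with the extremes of each role group, the genes with most peaks, the strongest peaks, and up to 6 called genes per direction of the other flagellar list. Genes, role groups, lists and tests were chosen with earlier results of these data known. The ClpX table holds 2 repeated rows, which were kept.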

Additional observations from a re-analysis of the deposited data

Results flagged for a closer look

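There were 8 sites called lower in ClpP cKO and higher in ClpX cKO, both against the same WT libraries. They were 6.11% of the flagellar pairs, against 4.02% of the pairs of all genes, and the difference between the comparisons was not tested. The log2 fold change of ClpX cKO minus that of ClpP cKO, from values in the authors' deposited tables, was 2.005 for the middle peak of Cfap65 (chr1:74924805-74925314) and 1.925 for the 3' peak of Dnah17 (chr11:118023042-118023491). For Rsph6a it was 1.393 (chr7:19065912-19067167) and 1.052 (chr7:19074091-19074447). For Ift140 it was 0.994, 1.076 and 1.589 from 5' to 3' (chr17:25092845-25093077, chr17:25096675-25098926 and chr17:25099135-25099495). For Tekt4 it was 1.004 (chr17:25454704-25472109). The medians of all peaks differ between the tables as well, at 0.239 for ClpX cKO and -0.034 for ClpP cKO.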

How the results depend on the processing

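Flagellar medians stayed above 0 and higher calls outnumbered lower ones under every alternative tried. In ClpX cKO the table as a whole also had more higher than lower calls as deposited. Apart from centring and the split by fold enrichment, shares of all peaks under the same settings were not counted. These counts alone therefore do not set flagellar peaks apart from other peaks. Over all ClpX cKO peaks, a background not matched for peak strength, 3567 higher and 1185 lower calls became 2627 and 3230 after the table median was subtracted. In ClpP cKO the 35 higher and 18 lower calls became 20 and 13 at an adjusted p under 0.01, 16 and 2 with changes of at least 1 on the log2 scale, and 12 and 10 with a fold enrichment of at least 4. They were 23 and 8 with a fold enrichment under 4, and 19 and 8 without genes of 4 or more peaks, settings chosen after seeing the data. The ClpP cKO median of 0.193 became 0.042 at a fold enrichment of at least 4. In ClpX cKO the 35 higher calls became 10 at a fold enrichment of at least 4 and 23 without genes of 4 or more peaks. The 3 lower calls became 1 at an adjusted p under 0.01, 1 with changes of at least 1 on the log2 scale, 9 after the table median was subtracted, and 0 with a fold enrichment under 4. The ClpX cKO median of 0.273 became 0.672 with each gene at its peak of smallest p, 0.161 at a fold enrichment of at least 4 and 0.034 after the table median was subtracted. The cause was not tested, beyond fewer peaks entering. The other 29 values kept within 1.5 times the reported count or within its spread. No paired analysis was possible because each group had 1 library, and no library could be left out for the same reason. Depth is unknown, so the smallest detectable difference is too.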
